A study of Drosophila melanogaster with 9 samples.

Results

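The salivary gland secretion (Sgs) genes of Drosophila melanogaster were followed in RNA from larval fat body. They were chosen by name, as every gene of the deposited table whose symbol begins with Sgs and a digit, and 6 of 10372 genes met that rule: Sgs1, Sgs3, Sgs4, Sgs5, Sgs7 and Sgs8. The rule reads only the symbol, and all 6 passed the filter on low values. The series measured fat body RNA in 3 groups of 3 libraries, from female larvae in the feeding phase of the mid-third instar. All larvae carried the hs-GAL4 driver, which makes the yeast activator GAL4 from a heat shock promoter in most tissues and not in the fat body alone. In the group control_HS the fathers came from stock 6598 (y1w1118), so the larvae had no UAS transgene, and they were heated at 37 °C for 30 min. In InRCA_HS the fathers came from stock 8263, which carries UAS-InR.A1325D, a constitutively active insulin receptor, and the larvae were heated in the same way. InRCA_noHS had the same parents as InRCA_HS but was moved to a new vial without heating and stayed at 25 °C. Fat bodies were collected 6 h later by shearing the larvae and spinning the tissue out. InRCA_HS therefore differs from InRCA_noHS in the heat pulse, which also switches on the transgene through hs-GAL4. Heat and the induced receptor cannot be told apart in that comparison. Both InRCA groups differ from control_HS in the paternal stock, so that the transgene cannot be told apart from the rest of the paternal genome, and InRCA_noHS differs from control_HS in the heat pulse as well. Each pair of these comparisons shares 1 group of libraries. The labels do not say whether libraries came from separate crosses or animals, so p-values here reflect no more than sample-to-sample spread, part of which may be technical.

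Glue proteins are made in the larval salivary glands, stored in granules, and expelled at the end of larval life, when they set and fix the pupal case to its support. Sgs1, Sgs3 and Sgs4 are mucin-like and rich in repeats, Sgs7 and Sgs8 are short and share a cysteine-rich domain with Sgs3, and Sgs5 is a short protein without such repeats. The genes come on in the mid-third instar under the steroid hormone ecdysone, through regulators such as the Broad transcription factors and the gland factors Fork head and Sage, and they are shut off by the later, higher ecdysone pulse. Glue genes are known for their expression in the salivary gland, not in the fat body.

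The libraries held between 8751178 and 17599891 recovered reads, and the lowest read count of any gene in any library was 1. InR, the gene encoded by the transgene, stood at 743 to 826 adjusted counts (reads scaled to a common library size) in control_HS, 1821 to 3662 in InRCA_noHS and 47774 to 66688 in InRCA_HS. The highest level was in the induced group, which follows the labels. InRCA_noHS, though not heated, was also above control_HS without overlap. Fat body markers were present in every library: 10 of 10 were in the table and summed to 3626400 to 4071000 in control_HS, 2731000 to 4122800 in InRCA_noHS and 2725300 to 3542700 in InRCA_HS. Of 16 salivary gland markers, 13 were in the table, the 6 Sgs genes among them, and ng1, ng2 and ng4 had no row. In whole tissue, fewer cells of a type and less RNA per cell cannot be told apart, and this holds for every value below.

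Sgs5 (FBgn0003375) was the glue gene that differed most from control_HS. In control_HS it stood at 1181, 847 and 937 adjusted counts in replicates 1, 2 and 3. In InRCA_noHS it stood at 16571, 6846 and 7725, and in InRCA_HS at 28613, 19645 and 10002. Each library with the transgene was above each control library, whereas InRCA_HS and InRCA_noHS overlapped, since InRCA_HS replicate 3 lay below InRCA_noHS replicate 1. The order of the group means was InRCA_HS (19420 ± 9308, SD, n = 3), InRCA_noHS (10380 ± 5379, n = 3) and control_HS (988 ± 173, n = 3). The recovered reads behind these values were 1218, 729 and 576 in control_HS and 6659 to 34244 in the other 6 libraries, so counting error was small beside the spread between libraries.

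Sgs5 rose in InRCA_HS against control_HS by 4.18 on the log2 scale of adjusted count + 1 (SE 0.40, 95% interval 3.30 to 5.06), 18.15-fold, with an adjusted p of 0.000706 in limma. It also rose in InRCA_noHS, the unheated group, against control_HS, by 3.29 (SE 0.40, interval 2.41 to 4.17), 9.77-fold, with an adjusted p of 0.00134 in limma. Between InRCA_HS and InRCA_noHS the difference was 0.89 (SE 0.40, interval 0.02 to 1.77), and it did not pass the threshold of 0.05 (limma adjusted p = 0.326). Counted from the largest increase down, with decreases last, Sgs5 ranked 8 of 10372 genes in InRCA_HS against control_HS. It ranked 12 in InRCA_noHS against control_HS and 376 in InRCA_HS against InRCA_noHS. Leaving out any single library kept both calls of Sgs5 against control_HS. Its change then ranged from 3.84 to 4.60 for InRCA_HS (limma adjusted p 0.000395 to 0.00602) and from 2.89 to 3.53 for InRCA_noHS (0.000577 to 0.00736).

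**Figure D1:**
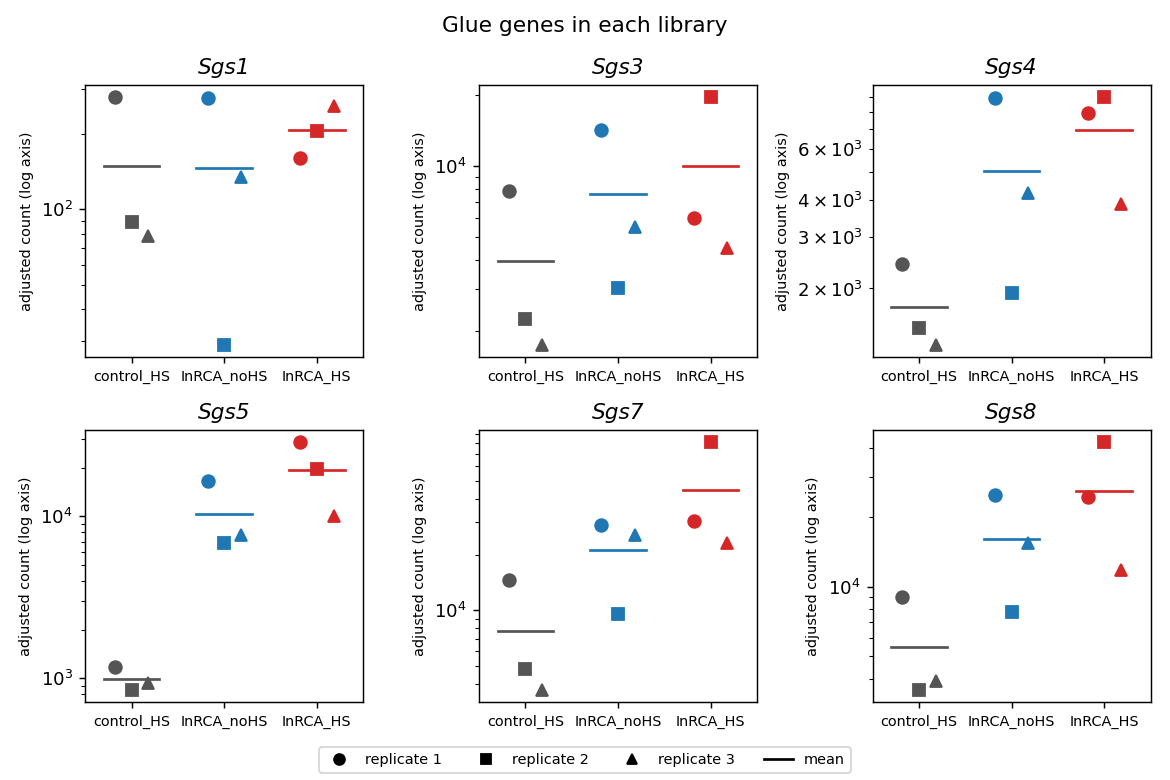
Adjusted counts of each glue gene (vertical axis, log scale, 1 panel per gene) in the 3 groups (horizontal axis), with 1 point per library and the group mean as a bar. Sgs5 shows the controls between 847 and 1181 and all 6 transgenic libraries at 6846 or above, while Sgs1 and Sgs3 show overlapping groups.

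Sgs7 (FBgn0003377), one of the short glue proteins, stood at 14473, 4824.5 and 3685 in control_HS, at 28803, 9576 and 25411 in InRCA_noHS and at 30229, 80962 and 23096 in InRCA_HS. Sgs8 (FBgn0003378), its close relative, stood at 9037, 3563 and 3914 in control_HS, at 25006, 7805 and 15497 in InRCA_noHS and at 24433, 42272 and 11777 in InRCA_HS. Sgs4 (FBgn0003374), one of the repeat-rich proteins, stood at 2432, 1472 and 1283 in control_HS, at 8919, 1924 and 4223 in InRCA_noHS and at 7927, 8979 and 3890 in InRCA_HS. For all of these genes every InRCA_HS library was above every control_HS library. The unheated InRCA_noHS group overlapped both others, because its replicate 2 lay within the range of the controls and its replicate 1 within that of InRCA_HS. The counting tool is not given, so reads of the related genes Sgs3, Sgs7 and Sgs8 may have been shared between them.

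The differences of these genes between InRCA_HS and control_HS missed the threshold. For Sgs7 the log2 difference was 2.59 (SE 0.61, interval 1.25 to 3.93, limma adjusted p = 0.0545). Sgs8 gave 2.20 (SE 0.54, interval 1.02 to 3.38, limma adjusted p = 0.0601) and Sgs4 gave 1.97 (SE 0.50, interval 0.87 to 3.07, limma adjusted p = 0.0665). Single libraries decided these calls. Of 9 fits without 1 library, 2 called Sgs7, 2 called Sgs8 and 4 called Sgs4. The limma adjusted p rose to 0.194 for Sgs7 and 0.2 for Sgs8 without control_HS replicate 3. For Sgs4 it rose to 0.22 without InRCA_HS replicate 1. Without control_HS replicate 1, the library with the highest glue levels of its group, Sgs7 was called higher at 3.19 (limma adjusted p = 0.0113), Sgs8 at 2.62 (0.0191) and Sgs4 with an adjusted p of 0.0348. Without InRCA_HS replicate 3 the limma adjusted p was 0.0416 for Sgs7, 0.0259 for Sgs8 and 0.0415 for Sgs4, and without InRCA_noHS replicate 1 or 2 it was 0.0443 or 0.0427 for Sgs4. In InRCA_noHS against control_HS the differences were 1.59 for Sgs7, 1.53 for Sgs8 and 1.33 for Sgs4, with limma adjusted p of 0.146, 0.113 and 0.14. There, too, leaving out control_HS replicate 1 gave calls for Sgs7 (2.18, limma adjusted p = 0.0328) and Sgs8 (1.95, 0.0425). For each gene this was the only call in 9 such fits. Without control_HS replicate 2 the limma adjusted p was 0.371 for Sgs7 and 0.334 for Sgs8.

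Sgs3 (FBgn0003373), a mucin-like glue protein, stood at 7833, 2239.5 and 1741 in control_HS, at 14185, 3032 and 5515 in InRCA_noHS and at 6016, 19503 and 4474 in InRCA_HS. Sgs1 (FBgn0003372), the other mucin-like protein of the set beside Sgs4, stood at 278, 88.7 and 78.2 in control_HS, at 276.6, 28.9 and 134 in InRCA_noHS and at 159, 204 and 257 in InRCA_HS. The groups overlapped for both genes in every comparison. Against control_HS, InRCA_HS differed by 1.37 for Sgs3 (interval -0.19 to 2.93, limma adjusted p = 0.34) and by 0.70 for Sgs1 (interval -0.85 to 2.25, limma adjusted p = 0.668). These intervals include both no difference and differences as large as those estimated for Sgs4 and Sgs8.

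Across the glue genes, 1 of 6 was called higher in InRCA_HS against control_HS, where 1.11% of all 10372 genes were. None was called lower, against 1.32% of all genes. In InRCA_noHS against control_HS 1 of 6 was called higher, beside 3.25% of all genes, and 0 lower, beside 3.78%. In InRCA_HS against InRCA_noHS 0 of 6 were called higher or lower by limma, beside 1.75% and 0.8% of all genes. Of the 6 genes, 1, Sgs5, had an unadjusted p under 0.05 there (0.0467), and edgeR on the recovered reads called none either. Groups did not overlap, with the first group higher, for 4 of 6 glue genes in InRCA_HS against control_HS (9.53% of all genes), for 1 of 6 in InRCA_noHS against control_HS (17.2%) and for 0 of 6 in InRCA_HS against InRCA_noHS (7.52%). The median log2 difference of the 6 genes was 2.08, 1.43 and 0.78 in these comparisons in that order, beside 0.00, 0.12 and -0.14 over all genes.

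**Figure D2:**
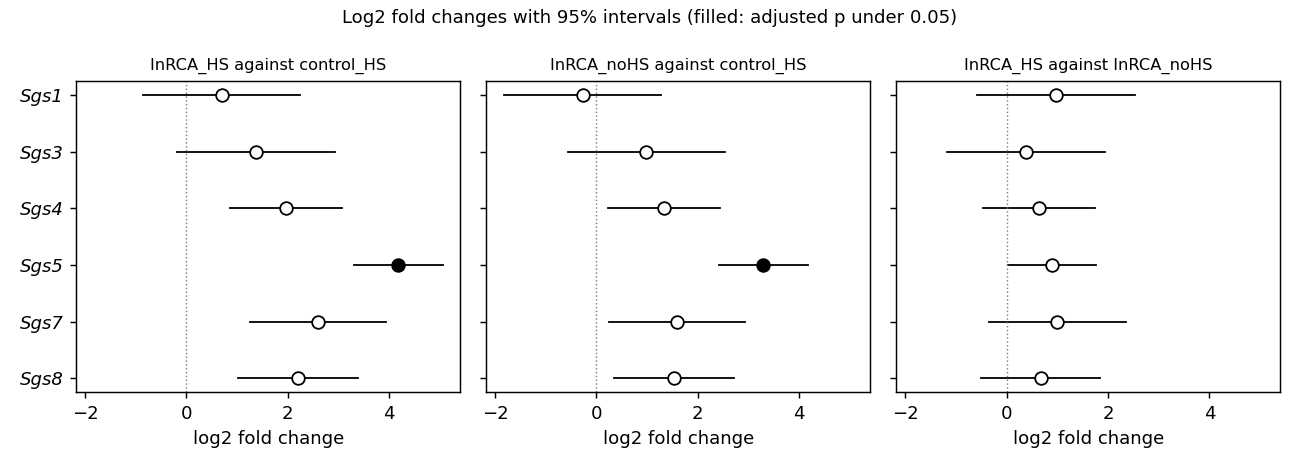
Log2 fold change (horizontal axis) of each glue gene (rows) in the 3 comparisons (panels), with 95% intervals from limma and filled points for an adjusted p under 0.05. Sgs5 is the filled point against control_HS, at 4.18 and 3.29, and in InRCA_HS against InRCA_noHS every point is open and between 0.38 and 1.0.

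Glue transcripts varied more between libraries of a group than most genes did. The SD within groups, on the log2 scale, was 1.14 for Sgs3, 1.13 for Sgs1, 0.96 for Sgs7, 0.84 for Sgs8, 0.79 for Sgs4 and 0.61 for Sgs5, and the median over all genes was 0.31. For Sgs3 98.4% of all genes had a smaller SD, and for Sgs5, the least variable of the set, 84.5% had. The variation was shared among the glue genes. Replicate 1 was the highest control_HS library for all 6 genes, and in InRCA_noHS replicate 1 was the highest and replicate 2 the lowest for all 6. In InRCA_HS replicate 2 was highest for Sgs3, Sgs4, Sgs7 and Sgs8 and replicate 3 lowest for these and Sgs5, while Sgs5 was highest in replicate 1 and Sgs1 in replicate 3.

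After the group means were taken away, the deviations of the 9 libraries correlated at r = 0.95 between Sgs3 and Sgs7, 0.93 between Sgs7 and Sgs8 and 0.93 between Sgs4 and Sgs8. Sgs5 followed Sgs4 (0.85) and Sgs8 (0.77) more than Sgs3 (0.62), Sgs7 (0.51) and Sgs1 (0.44). These values describe 9 libraries in which all genes share the library and its scaling. Sgs3, Sgs7 and Sgs8 also lie next to each other on chromosome arm 3L in the current gene order, whereas Sgs4 lies on X, Sgs5 on 3R and Sgs1 on 2L.

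Sgs5 was set against the other members within each library, a comparison chosen after the values were seen. Its log2 level minus the mean log2 level of the other 5 genes was -1.65, -0.71 and -0.36 in control_HS. The same difference was 1.13, 2.03 and 0.90 in InRCA_noHS and 2.35, 0.91 and 1.27 in InRCA_HS. All control values were below 0 and all values with the transgene above it, with group means of -0.91 ± 0.67, 1.35 ± 0.60 and 1.51 ± 0.75 (SD, n = 3 each). InRCA_HS exceeded control_HS by 2.42 on this measure, and by 2.0 to 2.71 when single libraries were left out. No test is given, since Sgs5 was singled out for its difference between the groups.

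The mean log2 level of the other 5 genes alone was 10.24 to 11.85 in control_HS, 10.71 to 12.89 in InRCA_noHS and 12.02 to 13.35 in InRCA_HS. These ranges overlap in every pair of groups that includes InRCA_noHS, whereas the lowest InRCA_HS library lay above the highest control_HS library.

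**Figure D3:**
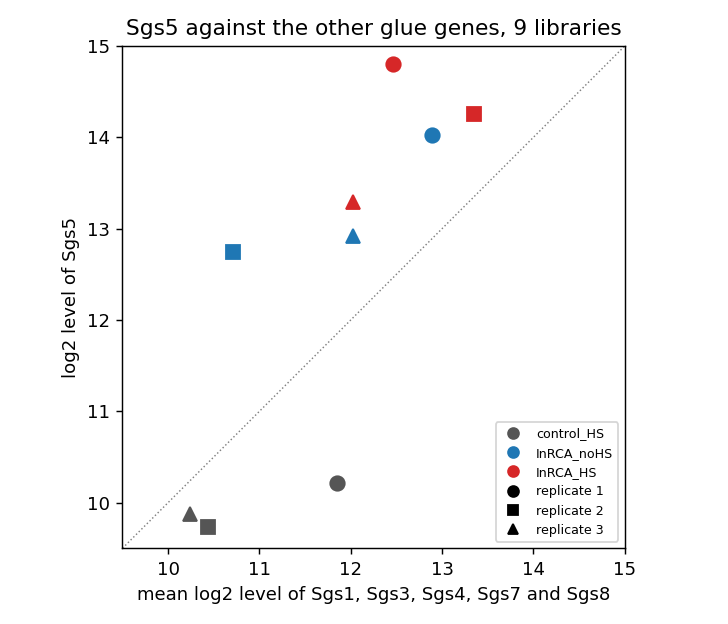
Log2 level of Sgs5 (vertical axis, log2 of adjusted count + 1) against the mean log2 level of Sgs1, Sgs3, Sgs4, Sgs7 and Sgs8 (horizontal axis) in the 9 libraries, with groups marked and a line of equal levels. The 3 control_HS libraries lie below the line and the 6 libraries with the transgene above it, although their ranges on the horizontal axis overlap.

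The genes whose profile was most like that of Sgs5 were ranked by Pearson correlation of log2 levels over the 9 libraries, as a description. The first 10 were Myo61F (0.992), a class I myosin, CG31496 (0.992), Acph-1 (0.965), an acid phosphatase, Vha44 (0.964), a proton pump subunit, lqfR (0.961), CG1969 (0.959, named Gnpnat today), CG10158 (0.958, Fgop2), CG10126 (0.956), CG17119 (0.956, Ctns, a lysosomal cystine transporter) and Patj (0.951), a cell polarity scaffold. In all, 70 genes, 0.675% of the table, had a correlation over 0.9. Of the first 10, only Myo61F and CG31496 were also among the first 10 by deviations from the group means, and 3 were among the first by Spearman correlation. The other glue genes ranked 80 (Sgs4), 84 (Sgs8), 202 (Sgs7), 1076 (Sgs3) and 3483 (Sgs1).

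CG31496 stood at 71.8, 53.5 and 55.6 in control_HS, at 325, 179.96 and 225 in InRCA_noHS and at 617, 369 and 221 in InRCA_HS. Each transgenic library was above each control, as for Sgs5. Myo61F spanned a narrower range, with 667 to 711 in control_HS, 920.2 to 1079.9 in InRCA_noHS and 1047 to 1269 in InRCA_HS. Both were chosen for their likeness to Sgs5 in the same libraries, so their differences between groups are a description.

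The table's nearest genes on either side of each glue gene, 3 each way in the current annotation, made 24 neighbours. In InRCA_HS against control_HS 1 of 24 was called higher and 0 lower, beside 1.11% and 1.32% of all genes. In InRCA_noHS against control_HS 2 were called higher and 1 lower, beside 3.25% and 3.78%. In InRCA_HS against InRCA_noHS 0 were called by limma, beside 1.75% higher and 0.8% lower. Sgs5 lies between CG7587, now named Sgs5bis after its relation to Sgs5, and CG7606. CG7587 stood at 12728, 9582 and 12716 in control_HS, at 19775, 11767 and 13696 in InRCA_noHS and at 22753, 26673 and 10576 in InRCA_HS. Its groups overlapped, and its log2 differences were 0.68 for InRCA_HS and 0.35 for InRCA_noHS against control_HS (limma adjusted p = 0.321 and 0.574), beside 4.18 and 3.29 for Sgs5. The levels of CG7587 correlated with those of Sgs5 at 0.72 over the libraries, and the deviations from the group means at 0.87.

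CG7606, on the other side, stood at 4594, 1017 and 1133 in control_HS, at 5380, 1738.5 and 3654 in InRCA_noHS and at 3258, 12242 and 2739 in InRCA_HS. Its high libraries were those of Sgs3: the correlation over 9 libraries was 0.97 with Sgs3, 0.93 with Sgs7, 0.91 with Sgs8 and 0.64 with its neighbour Sgs5. It was not called in any comparison, with a log2 difference of 1.46 in InRCA_HS against control_HS (limma adjusted p = 0.284). The next gene, sll, which encodes a transporter that supplies the Golgi with activated sulphate, stood at 159, 234 and 232 in control_HS, at 518, 429 and 402 in InRCA_noHS and at 507, 311 and 534 in InRCA_HS. It rose by 1.09 (limma adjusted p = 0.0419) and 1.12 (0.0201) against control_HS. Leaving out InRCA_HS replicate 1 raised the first adjusted p to 0.163 and leaving out InRCA_noHS replicate 1 raised the second to 0.073, so both rest on single libraries. The first call held in 2 of 9 fits without 1 library and the second in 6 of 9. Beside the 3L cluster, chrb, an inhibitor of the TOR pathway, rose by 0.95 in InRCA_noHS against control_HS (limma adjusted p = 0.0257, and 0.107 without control_HS replicate 2). Near Sgs4 on X, CG14265 fell by 1.62 in the same comparison (limma adjusted p = 0.0216, and 0.0998 without control_HS replicate 2). Of 9 fits without 1 library, 6 kept the call of chrb and 5 that of CG14265.

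Other genes of the glue programme and the salivary gland were read beside the members, from a list of 13 of which 10 were in the table. Against control_HS, 1 of 10 was called higher in each transgenic group, beside 1.11% of all genes in InRCA_HS and 3.25% in InRCA_noHS. InRCA_HS against InRCA_noHS gave 0 calls in limma, beside 1.75% of all genes higher and 0.8% lower. The median log2 differences were 0.69, 0.37 and 0.43. The gene called was sage, which encodes a salivary gland transcription factor that acts with Fork head. It stood at 241, 183 and 366 in control_HS, at 963, 854 and 1075 in InRCA_noHS and at 795, 589.7 and 494 in InRCA_HS. Both transgenic groups were above the controls without overlap, and unlike Sgs5 its highest group mean was that of the unheated larvae. Neither sage nor Sgs5 was called between the transgenic groups. Against control_HS, sage rose by 1.92 in InRCA_noHS (limma adjusted p = 0.00224, called in every fit without 1 library) and by 1.28 in InRCA_HS (0.0322, but 0.133 without InRCA_HS replicate 1). The call in InRCA_HS held in only 3 of 9 fits without 1 library.

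No other gene of that list passed the threshold. Pig1, the gland gene beside Sgs4, differed by 0.94 in InRCA_HS against control_HS (limma adjusted p = 0.056) and CrebA, a regulator of secretory genes, by 0.82 (0.0718). PH4alphaSG1, a salivary gland prolyl hydroxylase subunit with a mean of 4.14 adjusted counts in control_HS, differed by 1.97 (limma adjusted p = 0.0694). The forkhead gene fkh differed by 0.70 in InRCA_HS and 0.73 in InRCA_noHS (limma adjusted p = 0.133 and 0.0837). ng3, the other gland gene beside Sgs4, was at -1.0 in InRCA_noHS against control_HS (limma adjusted p = 0.0814) and at 0.10 in InRCA_HS.

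The salivary gland markers other than the glue genes did not all follow them in InRCA_noHS. In InRCA_HS against control_HS 13 of 13 gland markers in the table, the Sgs genes included, had a log2 difference above 0. In InRCA_noHS against control_HS 9 of 13 had, among them 5 of the 6 Sgs genes. The exception among the Sgs genes was Sgs1, at -0.28 (limma adjusted p = 0.85). The 7 markers of the gland other than the Sgs genes that were in the table (ng3, Pig1, fkh, sage, CrebA, PH4alphaSG1 and PH4alphaSG2) summed to 1198 to 1524 adjusted counts in control_HS, 1856 to 2301 in InRCA_noHS and 2218 to 3095 in InRCA_HS. Of these 7, sage was the one called. From control_HS to InRCA_noHS its mean went from 263 to 964. The means of fkh (110 and 182), Pig1 (90.8 and 120) and PH4alphaSG1 (4.14 and 7.89) were also higher in InRCA_noHS. CrebA stood at 767 and 758, PH4alphaSG2 at 26.6 and 22.3 and ng3 at 128 and 58.1. Within groups, the deviations of the 9 libraries from their group means correlated with those of the other 5 glue genes' mean at 0.68 for Pig1 and between -0.43 and 0.14 for the remaining 6 markers. With Sgs5 they correlated at 0.70 for Pig1 and between 0.10 and 0.45 for these 6. CG7587, Scr and hth were on the list of glue and salivary genes but not among these markers. Their deviations correlated at 0.68, 0.62 and 0.54 with those of the other 5 glue genes' mean, and at 0.87, 0.25 and 0.66 with those of Sgs5. None of the 7 markers was at 0 in any library, but this held for every gene of the table. The part of salivary gland tissue in the differences of the glue genes was not tested.

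**Figure D4:**
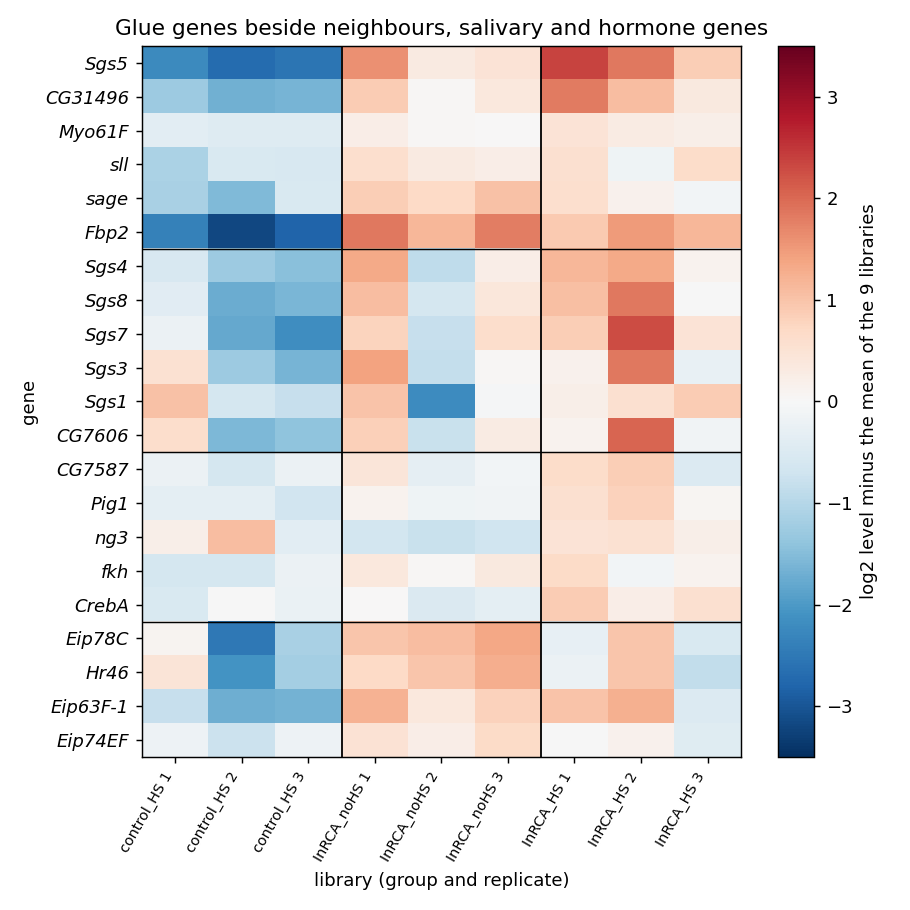
Log2 level of each gene minus its mean over the 9 libraries (colour) for the glue genes and genes named beside them (rows) in each library (columns, grouped by a line). Sgs5, CG31496 and Fbp2 are low in all 3 controls, while Sgs3, Sgs7, Sgs8 and CG7606 are highest in InRCA_HS replicate 2.

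Because glue genes answer to ecdysone, the hormone's pathway was counted from lists of its genes. Of the receptor genes and early and late regulators 18 of 19 were in the table, and limma called 0 when InRCA_HS was set against either other group. Of all genes, 1.11% were called higher and 1.32% lower against control_HS, and 1.75% and 0.8% against InRCA_noHS. At these shares few or no calls would be found among 18 genes. In InRCA_noHS against control_HS 4 of 18 were called higher and 0 lower, beside 3.25% and 3.78% of all genes. The nuclear receptor genes Eip78C and Hr39 rose by 2.31 and 1.45 (limma adjusted p = 0.033 and 0.0241), and Eip74EF and Eip93F, which encode transcription factors of the ETS and helix-turn-helix kinds, by 0.84 and 0.82 (0.0403 and 0.0267). Each of the 4 calls was lost in at least 4 of 9 fits without 1 library, with adjusted p up to 0.107, 0.102, 0.158 and 0.102 in that order. The gene of the receptor itself, EcR, differed by -0.04 and -0.11 in InRCA_HS and InRCA_noHS against control_HS, and br, which encodes the Broad factors, by 0.44 and 0.49 (limma adjusted p = 0.455 and 0.325). The median of the list was 0.34 in InRCA_HS and 0.76 in InRCA_noHS against control_HS, whereas the estimate for Sgs5 was larger in InRCA_HS. Between the transgenic groups neither Sgs5 nor any gene of the list was called, so these orders are a description.

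Of the hormone's effector genes 13 of 22 were in the table, and 1 was called higher in InRCA_HS and 3 in InRCA_noHS against control_HS (1.11% and 3.25% of all genes), with 0 lower (1.32% and 3.78%). InRCA_HS against InRCA_noHS gave 0 calls, beside 1.75% of all genes higher and 0.8% lower. Eip63F-1, a calcium-binding protein, rose by 1.98 in InRCA_HS (limma adjusted p = 0.0391) and by 2.19 in InRCA_noHS (0.0127). The first of these calls was lost in 7 of 9 fits without 1 library (adjusted p up to 0.153) and the second in 3 of 9 (up to 0.0615). In InRCA_noHS Eip63E, a cyclin-dependent kinase, rose by 1.1 (limma adjusted p = 0.0112) and Eip71CD, a methionine sulphoxide reductase, by 1.29 (0.0259). Without control_HS replicate 2 these became 0.0501 and 0.112, and the calls held in 8 and 6 of 9 fits without 1 library. Of the genes of ecdysone synthesis and activation 9 of 10 were in the table and 1 was called, spok, a ring gland cytochrome P450. It was higher by 1.20 in InRCA_noHS against control_HS (limma adjusted p = 0.0333, and 0.134 without control_HS replicate 2), beside 3.25% of all genes. Its call held in 4 of 9 fits without 1 library.

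The secreted storage and fat body proteins of the same stage were in the table with 6 of 6 genes. Fbp2, a fat body protein related to alcohol dehydrogenase, was called higher in both comparisons with control_HS and no other was. Of all genes, 1.11% were called higher in InRCA_HS and 3.25% in InRCA_noHS. Fbp2 stood at 10683, 6081 and 7906 in control_HS, at 198420, 122650 and 192270 in InRCA_noHS and at 104160, 155030 and 123840 in InRCA_HS. Like Sgs5, it separated every transgenic library from every control, but its order of group means was InRCA_noHS, InRCA_HS and control_HS. The transgenic groups overlapped for both genes, and neither gene was called between them. Fbp2 rose by 3.98 in InRCA_HS (limma adjusted p = 0.000167) and 4.38 in InRCA_noHS (6.19e-05) against control_HS, and both calls held without any single library. The medians of the 6 proteins were -0.48 and -0.45 in these comparisons, and those of the 6 glue genes 2.08 and 1.43.

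**Figure D5:**
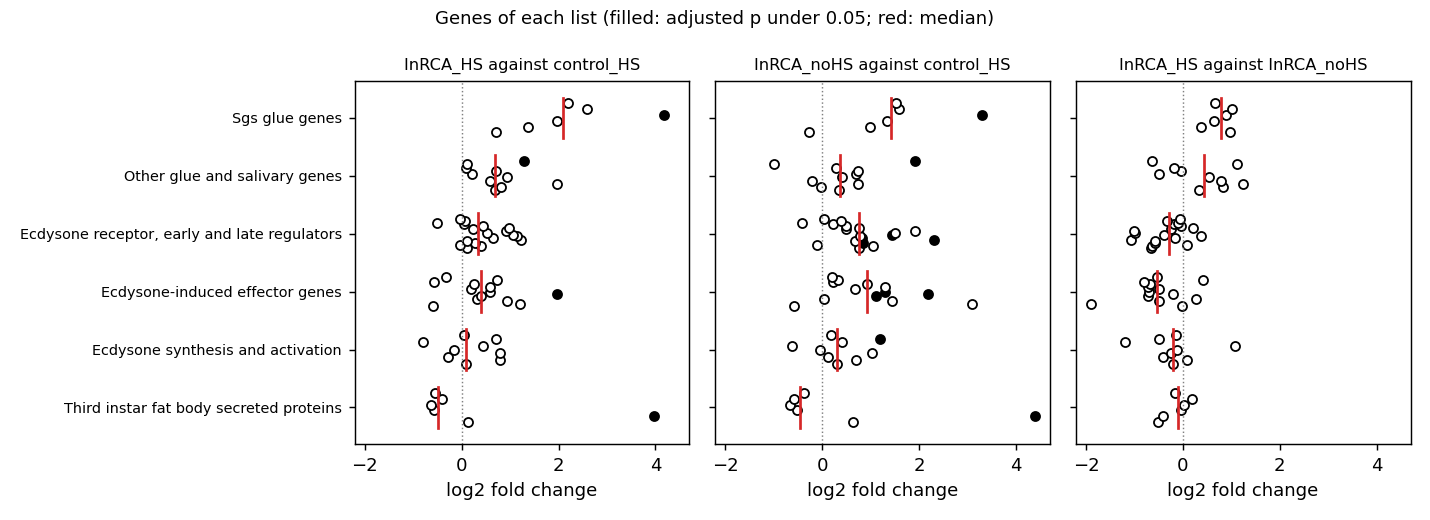
Log2 fold change (horizontal axis) of each gene of each list (rows) in the 3 comparisons (panels), with a red bar for the list's median and filled points for a limma adjusted p under 0.05. The glue genes have medians of 2.08 and 1.43 against control_HS, and 0.78 between the transgenic groups, and the secreted fat body proteins have 1 filled point, Fbp2, at 3.98 and 4.38.

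Markers of other tissues were read in the same libraries, with sums given for control_HS, InRCA_noHS and InRCA_HS in that order. Muscle markers, 9 of 9 in the table, summed to 31001 to 58586, 15978 to 28415 and 23745 to 27205. Of these, 1 was called lower in InRCA_HS and 2 in InRCA_noHS against control_HS, beside 1.32% and 3.78% of all genes. Cuticle and epidermis markers, 6 of 7, summed to 2397 to 3744, 3149 to 4892 and 4214 to 12614. Among the cuticle markers, 4 were called higher in InRCA_HS against control_HS (1.11% of all genes) and 1 higher in InRCA_HS against InRCA_noHS (1.75%). In InRCA_noHS against control_HS 1 was called lower (3.78%). Neuron markers, 4 of 5, summed to 5081 to 7877, 5561 to 6636 and 2923 to 4305, lowest in InRCA_HS without overlap, with 0 called by limma. Of all genes, 0.8% to 3.78% were called in each direction of each comparison. Gut markers, 9 of 10, summed to 10838 to 12968, 7900.1 to 19598 and 7336 to 23966. Hemocyte markers, 6 of 9, summed to 5059.5 to 7407, 4340.3 to 4785 and 4218 to 7477. Ring gland markers, 5 of 5, summed to 1393 to 1567, 1211 to 1523 and 1289.6 to 3276, and Malpighian tubule markers, 2 of 2, to 1243 to 2402, 516 to 1475 and 586 to 2505.5. Among gut, hemocyte, ring gland and Malpighian tubule markers 1 call was made, spok higher in InRCA_noHS against control_HS (3.25% of all genes). The part of these tissues in the values of the glue genes was not tested.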

How the data were processed

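The deposited table gave 1 value per gene and library for 9 libraries, a signal that is never negative and that behaves, judged by its values, as counts the authors had adjusted to a common library size. Build dm3, Cufflinks 1.1.0, Bowtie 0.12.7 and TopHat 1.3.2 appear in the submitters' processing notes. Not given in the sources used here are the counting tool, the annotation, the gene filter and the use of strand, so reads of overlapping or similar genes may be shared. Undoing a quantile adjustment of negative binomial counts (dispersion 0.072, 1 factor per library) gave whole reads within 0.1 for 98.8% of 38615 values up to 100. These reads summed to between 8751178 and 17599891 per library and entered edgeR 4.0.16 as an alternative chosen after seeing the data.

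Groups came from the sample titles. The test was limma 3.58.1 (R 4.3.3) with an intensity trend on log2(adjusted count + 1), which understates changes of low genes, in 1 fit of all 9 libraries. P-values were two-sided, with Benjamini-Hochberg adjustment over 10372 genes and a threshold of 0.05, and a filter at a mean of 1 removed 0 genes. The scripts were tested on simulated data. Named were the Sgs genes, the 10 genes most like Sgs5, neighbours up to 3 genes away and listed genes with the smallest p. Members and lists were chosen with earlier results of these data known. Gene order and current names came from the Ensembl and RefSeq annotations of release 6 of the genome, for 9928 of 10372 IDs, and no coordinates are given because the builds differ. In all, 0 columns of other samples were left out. Figures were drawn with Python 3.11.15 and matplotlib 3.10.9.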

Additional observations from a re-analysis of the deposited data

How the results depend on the processing

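Alternatives covered the pseudocount, the filter, scaling, the trend, library weights, the libraries fitted, the replicate block, edgeR and leaving out each library. Sgs5 kept its 2 calls against control_HS in all of these, at 4.18 to 4.42 and 3.17 to 3.31 with other settings, and it was not called in InRCA_HS against InRCA_noHS (adjusted p 0.147 to 0.396, and 0.126 to 0.614 without 1 library). Glue genes called higher in InRCA_HS against control_HS numbered 3 with quantile normalization, 4 with array quality weights and 1 to 4 without 1 library. In InRCA_noHS against control_HS they numbered 3 with array weights and 1 to 3 without 1 library. In InRCA_HS against InRCA_noHS they were 0 in every alternative. The sign turned without 1 library for Sgs1 in InRCA_noHS against control_HS (-0.98 to 0.62) and for Sgs3 in InRCA_HS against InRCA_noHS (-0.25 to 0.98), neither of them called. Over all genes, counts of higher and lower calls in InRCA_HS against control_HS became 46 and 44 with no trend, 331 and 569 with array weights, 30 and 26 with only the 6 libraries compared, and 32 to 325 and 21 to 636 without 1 library. In InRCA_HS against InRCA_noHS they became 111 and 34 with no trend, 85 to 220 and 16 to 116 without 1 library, and the lower calls 146 with array weights, 142 with 6 libraries and 53 with edgeR. In InRCA_noHS against control_HS they became 200 and 246 with no trend, 742 and 704 with array weights, 96 to 681 and 164 to 740 without 1 library, and the higher calls 220 with TMM and 207 with edgeR. The cause was not tested. TMM moved the median of all genes from -0.14 to -0.02 in InRCA_HS against InRCA_noHS and from 0.12 to 0.00 in InRCA_noHS against control_HS. Deviations of libraries with the same replicate number correlated at -0.245 to 0.121. These values show little shared deviation but cannot settle whether the numbers pair the libraries. With the replicate block Sgs5 gave 4.18, 0.89 and 3.29 (limma adjusted p = 0.000399, 0.18 and 0.00089), and no glue gene changed its call. Of 17 calls of other named genes, 3 (both of Fbp2, and sage in InRCA_noHS, each against control_HS) held in all alternatives, 3 were lost with edgeR and 5 with the block.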
